A study of Mus musculus with 16 samples.

Results

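The genes described are 9 tubulins and *Atat1*, the gene of the tubulin acetyltransferase, in CD4+ and CD8+ tumor-infiltrating lymphocytes (TILs). They are 10 of the 55450 genes of the count table and were picked by name, as genes of alpha-tubulin (*Tuba1a*, *Tuba1b*, *Tuba1c* and *Tuba4a*), beta-tubulin (*Tubb2a*, *Tubb4b*, *Tubb5* and *Tubb6*), gamma-tubulin (*Tubg1*) and the enzyme that acetylates alpha-tubulin. The TILs were isolated from tumors of the mouse melanoma line B16F10, grown under the skin of WT mice (C57BL/6J) or in Sirt2-/- mice (strain B6.129-Sirt2tm1.1Fwa/J, a knockout of the whole animal, so that T cells and host tissue both lack *Sirt2*). The mice were 7 to 8 weeks old, with controls matched for age and sex, and the labels name no treatment. Cells were purified on CD3ε beads and total RNA was sequenced, with 4 libraries each of WT CD4+, Sirt2-/- CD4+, WT CD8+ and Sirt2-/- CD8+ TILs (16 in all). The questions were whether tubulin genes differ between WT and Sirt2-/- TILs, and between CD8+ and CD4+ TILs.

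Alpha- and beta-tubulin form the heterodimer from which microtubules are built, and gamma-tubulin nucleates them at the centrosome. ATAT1 acetylates alpha-tubulin on the lysine at position 40, which faces the inside of the microtubule, and SIRT2 and HDAC6 remove this mark. In T cells the centrosome moves to the contact with the target cell, where microtubules guide the release of lytic granules. RNA counts measure none of these protein states, acetylation included.

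The coding sequence around codon 40 of the alpha-tubulin genes is shown because it holds the lysine on which ATAT1, SIRT2 and HDAC6 act, and because it shows how alike these genes are to a sequencing read. The codon is in capitals, counted from the start codon, in transcripts of GENCODE mouse release M21.
Tuba1a: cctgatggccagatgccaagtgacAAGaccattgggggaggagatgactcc
Tuba1b: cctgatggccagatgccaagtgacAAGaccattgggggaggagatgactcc
Tuba1c: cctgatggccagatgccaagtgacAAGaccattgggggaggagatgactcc
Tuba4a: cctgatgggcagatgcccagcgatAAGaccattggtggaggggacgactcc
Tuba8: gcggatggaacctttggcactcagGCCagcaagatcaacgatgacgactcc
*Tuba1a*, *Tuba1b* and *Tuba1c* were identical over these 51 bases, *Tuba4a* differed from them at 7 bases, and all 4 had the lysine codon AAG. *Tuba8*, an alpha-tubulin outside the 10 genes, had the alanine codon GCC and differed at 29 bases. Over 1320 aligned coding positions *Tuba1a*, *Tuba1b* and *Tuba1c* were 98.0% to 98.9% identical, against 85.5% to 85.8% between each of them and *Tuba4a*. Of all 100-base windows of their transcripts, 65.1% in *Tuba1a*, 62.1% in *Tuba1b* and 46.0% in *Tuba1c* also occurred in another gene, and in *Tubb2a* 36.9% did, mostly in *Tubb2b*. *Tubb4b* shared 21%, mostly with the pseudogene *Tubb4b-ps1*, *Tubg1* shared 3.2% with *Tubg2*, and *Tuba4a*, *Tubb5*, *Tubb6* and *Atat1* shared none. Counts of *Tuba1a*, *Tuba1b*, *Tuba1c* and *Tubb2a* are therefore uncertain as single genes. How reads that match several genes were counted is not given in the sources used here. The alpha-tubulin sums, the beta to alpha ratio and the ranking of genes by level, given below, carry this uncertainty too.

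On GRCm38 the genes for *Tuba1b* (chromosome 15, 98931425 to 98934565, minus strand), *Tuba1a* (98949837 to 98953703, minus strand) and *Tuba1c* (99029891 to 99038110, plus strand) lie side by side. Exons of *Gm49450*, on the same strand, cover 26.2% of the exons of *Tuba1a* and 22.7% of those of *Tuba1b*. *Tuba4a* lies on chromosome 1 (75214228 to 75219865), where exons of *Stk16* on the opposite strand cover 37.3% of its own, and the strand setting of the counting is not given in the sources used here. The beta-tubulin genes lie on chromosome 13 (*Tubb2a*, 34074274 to 34078007), chromosome 2 (*Tubb4b*, 25222160 to 25224702), chromosome 17 (*Tubb5*, 35833921 to 35838306) and chromosome 18 (*Tubb6*, 67390717 to 67402749). *Tubg1* lies on chromosome 11 (101119938 to 101126419) and *Atat1* on chromosome 17 (35897595 to 35910075), with 14.0% of its exons under the antisense gene *Gm16279*.

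Total counts per library ranged from 28000949 to 62407851. In 3 libraries few genes were detected: 8169 in replicate 4 of Sirt2-/- CD4+ TILs, 12587 in the first WT CD4+ library and 14411 in the first WT CD8+ library, against 17730 to 22138 in the other 13. These 3 stand apart for the tubulins too, so the fold changes of genes called are given with and without them. *Cd4* measured 384 to 620 CPM (counts scaled to a common library size by TMM) in CD4+ TILs and at most 4.93 CPM in CD8+ TILs, and *Cd8a* at least 1004 CPM in CD8+ TILs and at most 33.4 CPM in CD4+ TILs. *Sirt2* had 2272, 1886, 1825 and 1681 counts in WT CD4+ replicates 1 to 4 and 553, 433, 469 and 0 in the Sirt2-/- ones, and 1703, 1325, 1230 and 1196 counts in WT CD8+ and 448, 418, 322 and 358 in Sirt2-/- CD8+ TILs. The 0 stood in the Sirt2-/- CD4+ library with few genes, where *Hdac6* also had 0 counts. Summed melanoma marker levels (7 genes) were 98.4 CPM in WT CD4+ replicate 1 and 81.5 CPM in Sirt2-/- CD4+ replicate 4, against 3.83 to 15.7 CPM in the other 14 libraries. In the first of these none of the 7 markers was at 0, whereas in the second 5 were at 0 and the sum came from *Mitf* and *Dct*.

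*Tubb5*, the main beta-tubulin of dividing cells, was the highest of the 10 genes in every group, also per length of exons. Per kilobase of exon it measured 121 ± 17.7 CPM in WT CD4+, 100.5 ± 24.8 in Sirt2-/- CD4+, 240 ± 66.5 in WT CD8+ and 235 ± 10.7 in Sirt2-/- CD8+ TILs (SD, n = 4 each). *Tubb4b*, a beta-tubulin found in most tissues, was next with group means of 53.2 to 132 CPM per kb, followed by *Tuba4a* and *Tuba1b*, with 15.3 to 41.8 and 15.3 to 36.5 CPM per kb, whose libraries overlapped in each group. *Tuba1a*, *Tuba1c* and *Tubg1* had group means of 4.58 to 21.4 CPM per kb. *Tubb2a*, *Tubb6* and *Atat1* were the lowest, at 0.633 to 3.55 CPM per kb, and *Atat1* was below the other 9 genes in each of the 4 groups.

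Relative to library size, tubulin RNA was higher in CD8+ than in CD4+ TILs. Summed over 8 alpha-tubulin genes, WT libraries had 42.6, 57.6, 47.2 and 59.1 CPM per kb in CD4+ replicates 1 to 4 and 73.3, 139, 97.8 and 146 in CD8+ replicates 1 to 4. The Sirt2-/- libraries had 51.4, 45.8, 53.2 and 59.7 CPM per kb in CD4+ replicates and 104, 108, 112 and 124 in CD8+ replicates. Every CD8+ library lay above every CD4+ library, and the same held for the sum over 8 beta-tubulin genes, with 127 to 208 CPM per kb in CD4+ and 272 to 479 in CD8+ libraries. The beta to alpha ratio was 3.29 to 3.56 in the 6 CD4+ libraries with many genes and 2.92 to 3.44 in the 7 CD8+ ones, so that both sums were higher in CD8+ TILs at a like ratio. The ratio was 4.79 in WT CD4+ replicate 1 and 2.13 in Sirt2-/- CD4+ replicate 4. In bulk RNA, more cells with much tubulin RNA and more tubulin RNA in each cell cannot be told apart. CPM are relative to the other RNA of a library, so the amount per cell was not measured.

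**Figure D1:**
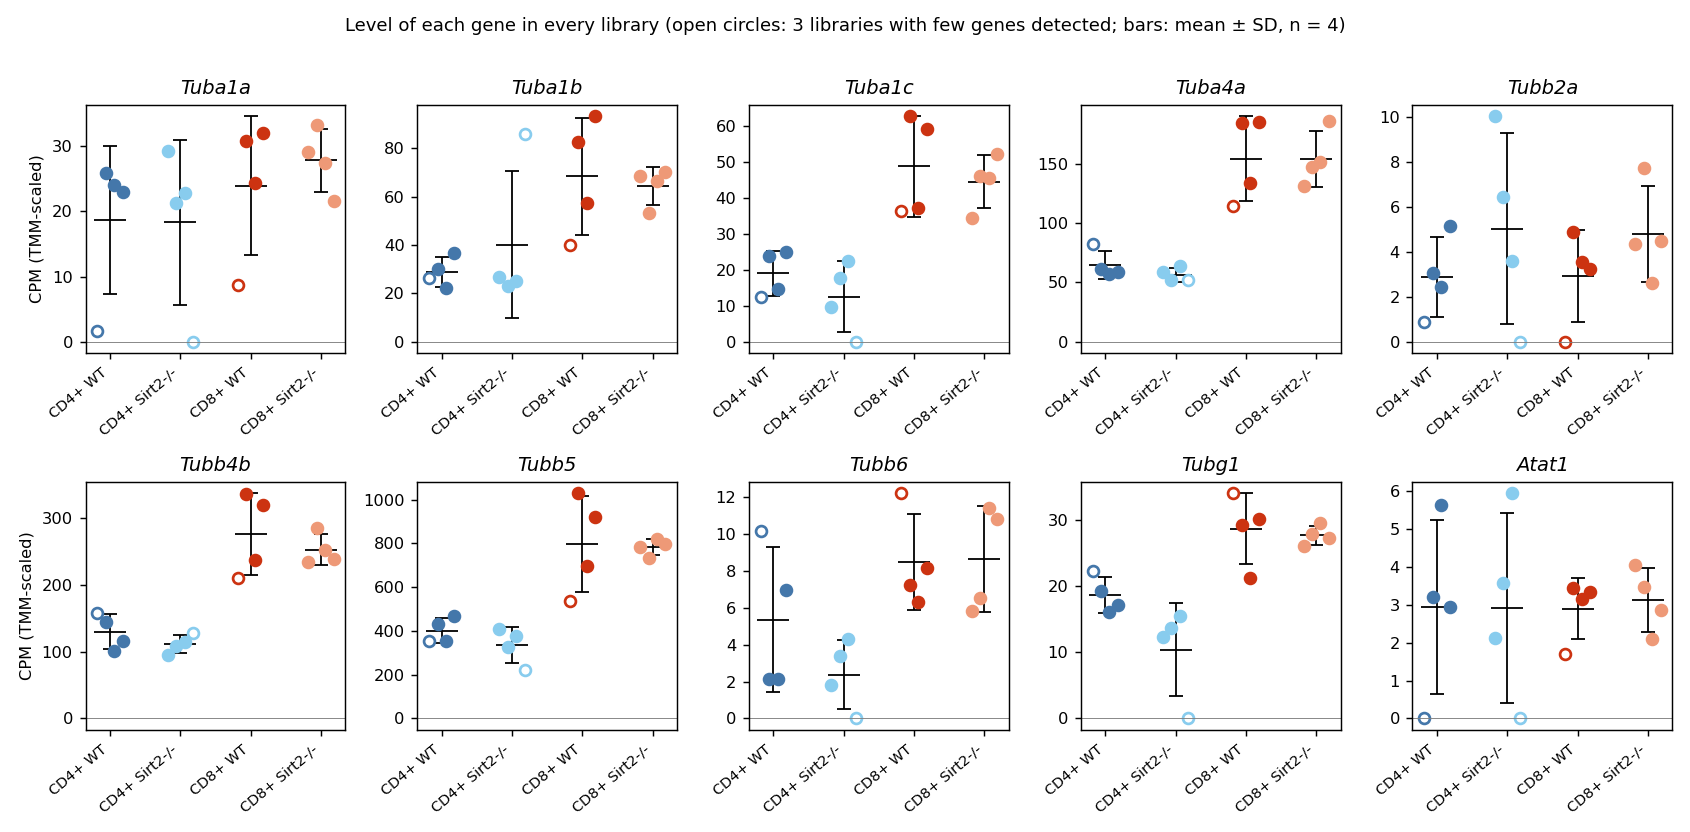
Level of each of the 10 genes in CPM (y axis, linear, a scale for each gene) in the 4 groups (x axis), with 1 point per library, open circles for the 3 libraries with few genes detected, and the mean ± SD of 4 libraries as bars. For Tuba4a, Tubb4b and Tubb5 all CD8+ points lie above all CD4+ points, whereas WT and Sirt2-/- points overlap within each cell type.

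In WT TILs 5 of the 10 genes passed the test as higher in CD8+ than in CD4+ TILs and none was lower, in a comparison where 4.89% of 14892 genes were called higher in CD8+ TILs and 11.9% were called in either direction (edgeR's quasi-likelihood test, adjusted p below 0.05 over all genes tested). For these 5 genes the WT CD8+ libraries did not overlap with the WT CD4+ libraries, as was the case, in this direction, for 12.6% of all genes tested. The 10 log2 fold changes had a median of 0.76, against -0.023 over all genes.

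*Tuba4a*, the alpha-tubulin whose sequence is least shared with other genes, measured 82.1, 61.4, 56.8 and 58.4 CPM in WT CD4+ replicates 1 to 4 and 115, 185, 134 and 185 CPM in the WT CD8+ replicates. The lowest CD8+ library and the highest CD4+ library were the ones with few genes. The log2 fold change was 1.19 (standard error (SE) 0.18, adjusted p = 0.00189, edgeR), a fold of 2.28, and 1.5 (SE 0.14, adjusted p = 2.91e-05, edgeR) without these 2 libraries.

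*Tubb4b* measured 158, 144, 101 and 116 CPM in WT CD4+ and 210, 336, 237 and 320 CPM in WT CD8+ TILs. Its log2 fold change was 1.02 (SE 0.18, adjusted p = 0.0042, edgeR), and 1.30 (SE 0.16) without the libraries with few genes. *Tubb5* measured 352, 432, 353 and 470 CPM in WT CD4+ and 538, 1031, 697 and 921 CPM in WT CD8+ TILs, a log2 fold change of 0.92 (SE 0.20, adjusted p = 0.0111, edgeR), and of 1.07 (SE 0.16) without the libraries with few genes. Both beta-tubulins thus had separate groups in WT TILs, with the library with few genes as the lowest of the CD8+ ones.

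*Tuba1b* and *Tuba1c*, alpha-tubulins of dividing cells, had log2 fold changes of 1.18 (SE 0.27, adjusted p = 0.0155, edgeR) and 1.28 (SE 0.29, adjusted p = 0.0153, edgeR) in WT TILs. *Tuba1b* measured 26.1, 30.0, 22.2 and 36.5 CPM in CD4+ and 40.05, 82.7, 57.4 and 93.3 CPM in CD8+ replicates 1 to 4, and *Tuba1c* 12.6, 23.9, 14.8 and 24.9 CPM in CD4+ and 36.4, 62.6, 37.1 and 59.1 CPM in CD8+ TILs. Their groups did not overlap. Without the libraries with few genes the fold changes were 1.39 (SE 0.22) and 1.32 (SE 0.24). Both calls were lost without WT CD4+ replicate 3 (1.08 and 1.19, adjusted p = 0.0541 for each, edgeR), without WT CD8+ replicate 4 (0.99 and 1.18, adjusted p = 0.0598 and 0.0576, edgeR) and with all 16 libraries in 1 model (1.25 and 1.36, adjusted p = 0.0795 and 0.473, edgeR).

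*Tuba1a*, the neighbor of *Tuba1b*, did not pass the test in WT TILs. It measured 1.70, 26.0, 24 and 22.9 CPM in CD4+ and 8.74, 30.7, 24.3 and 32.0 CPM in CD8+ replicates 1 to 4, where replicate 1 was the library with few genes in both. The groups overlapped, and the log2 fold change of 0.27 (SE 0.65, interval of 2 SE from -1.03 to 1.58) did not pass. Without the 2 libraries with few genes it was 0.25, with an interval of -0.07 to 0.57, below that of *Tuba4a* (1.23 to 1.78).

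*Tubg1*, the gamma-tubulin of the centrosome, measured 22.3, 19.3, 16.2 and 17.1 CPM in WT CD4+ and 34.2, 29.3, 21.3 and 30.3 CPM in WT CD8+ TILs. Its log2 fold change of 0.55 (SE 0.22, adjusted p = 0.152, edgeR) did not pass with all libraries and passed without those with few genes (0.61, SE 0.18, adjusted p = 0.0292, edgeR), where 6 of the 10 genes and 14.9% of all genes were called higher in CD8+ TILs. *Tubb2a*, *Tubb6* and *Atat1* did not pass either way, whereas limma-voom also called *Tubb6* (1.46, adjusted p = 0.00656) and *Tubg1* (0.59, adjusted p = 0.0131). *Atat1* had 0, 147, 253 and 108 counts in WT CD4+ and 56, 130, 116 and 118 in WT CD8+ TILs, with overlapping groups, and a log2 fold change of -0.26 without the libraries with few genes (interval -1 to 0.49).

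In Sirt2-/- TILs 3 of the 10 genes were called higher in CD8+ TILs, against 0.918% of 15787 genes in that direction and 2.24% in either direction. The groups did not overlap for 6 of the 10, with the CD8+ libraries above, as for 16% of all genes. The 10 log2 fold changes had a median of 1.19, against 0.163 over all genes. The Sirt2-/- CD4+ library with few genes took part in each of these values.

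*Tuba4a* measured 59.0, 51.7, 63.4 and 51.7 CPM in Sirt2-/- CD4+ and 131, 147, 152 and 186 CPM in Sirt2-/- CD8+ TILs, a log2 fold change of 1.44 (SE 0.15, adjusted p = 0.00374, edgeR) or a fold of 2.70. *Tubb4b* measured 94.3, 109, 114 and 127 CPM in CD4+ and 234, 285, 251 and 238 CPM in CD8+ TILs, a log2 fold change of 1.17 (SE 0.13, adjusted p = 0.00374, edgeR). Neither gene's groups overlapped, and without the library with few genes the fold changes were 1.38 (SE 0.13) and 1.22 (SE 0.11).

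*Tubb5* measured 411, 328, 377 and 221 CPM in Sirt2-/- CD4+ and 781, 735, 820 and 796 CPM in Sirt2-/- CD8+ TILs, with a log2 fold change of 1.21 (SE 0.19, adjusted p = 0.0188, edgeR). The 221 CPM stood in the library with few genes. The call was lost without any 1 of 6 libraries, namely Sirt2-/- CD4+ replicates 2 and 3 and all 4 Sirt2-/- CD8+ ones (adjusted p from 0.0531 to 0.0818, edgeR), although the fold change stayed between 1.19 and 1.27 there. Without the library with few genes it was 1.04 (SE 0.10, adjusted p = 8.74e-05, edgeR).

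The other genes turned on that library. *Tuba1b* measured 26.9, 22.9, 24.9 and 85.7 CPM in Sirt2-/- CD4+ and 68.3, 53.1, 66.2 and 69.9 CPM in Sirt2-/- CD8+ TILs, so that its highest CD4+ value lay above all CD8+ values. *Tuba1c* measured 9.78, 17.8, 22.5 and 0.0895 CPM in CD4+ and 34.4, 46.2, 45.5 and 52.1 CPM in CD8+ TILs. In the CD4+ library at the extreme of both, *Tuba1b* had 4786 counts, *Tuba1c* 5 and *Tuba1a* 1.

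*Tubg1* had 558, 581, 686 and 0 counts in Sirt2-/- CD4+ and 1288, 1133, 1462 and 1358 in Sirt2-/- CD8+ TILs, and *Tubb6*, a beta-tubulin of low level, 83, 143, 190 and 0 against 286, 265, 562 and 537. The 0 allows up to 3 counts of that library, for counting error only. Without the library, 7 of the 10 genes were called higher in CD8+ TILs, against 13.8% of all genes, with log2 fold changes of 1.34 for *Tuba1b* (SE 0.13), 1.38 for *Tuba1c* (SE 0.26), 0.97 for *Tubg1* (SE 0.14) and 1.41 for *Tubb6* (SE 0.37) beside the 3 above. *Tuba1a* (0.16, interval -0.19 to 0.50), *Tubb2a* and *Atat1* (-0.34, interval -1.16 to 0.47) did not pass.

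**Figure D2:**
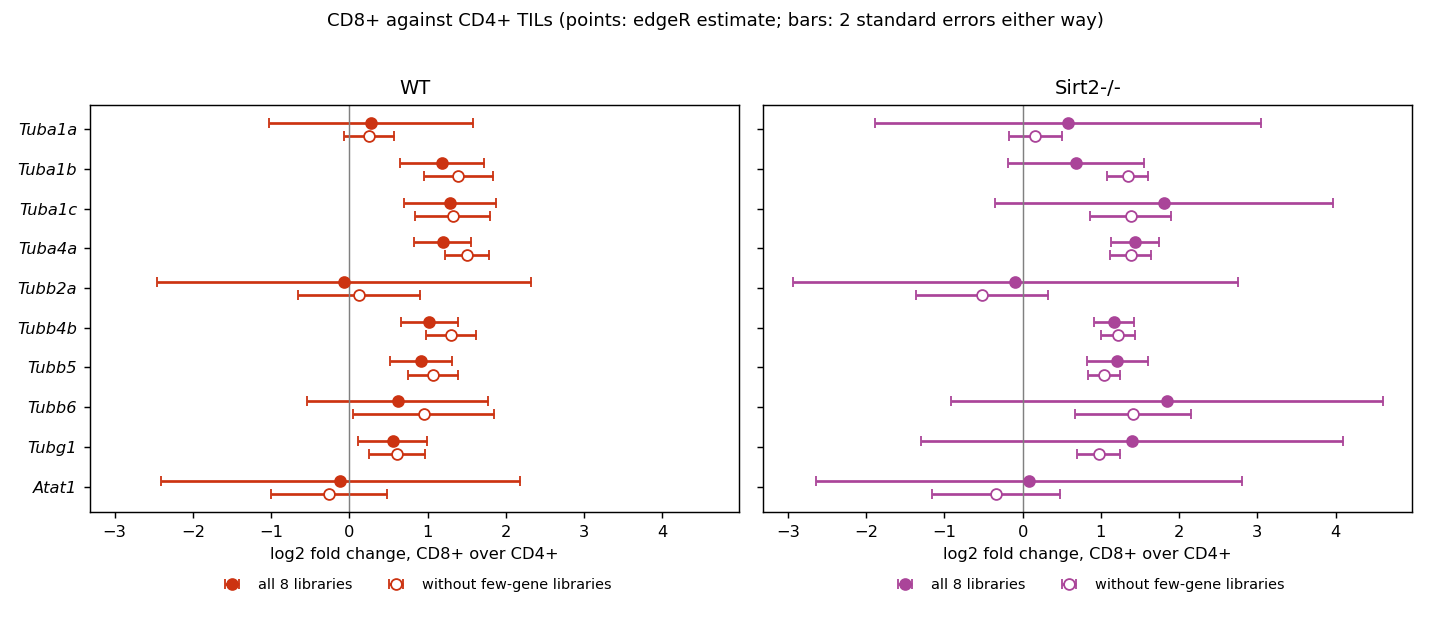
Log2 fold change of CD8+ over CD4+ TILs (x axis) for the 10 genes (y axis) in WT and in Sirt2-/- mice, with points for edgeR's estimates and bars for 2 standard errors either way, filled for all 8 libraries and open without those with few genes detected. The open bars of Tuba1b, Tuba1c, Tuba4a, Tubb4b, Tubb5, Tubb6 and Tubg1 lie to the right of 0 in both panels, and those of Tuba1a, Tubb2a and Atat1 cross 0.

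The make-up of alpha- and beta-tubulin RNA is given as shares of the summed level per length. In the 13 libraries with many genes *Tuba1a* took 21.5% to 31.6% of the alpha-tubulin level in CD4+ and 9.65% to 17.2% in CD8+ TILs, and the ranges did not overlap. *Tuba4a* took 26.7% to 32.6% in CD4+ and 34.1% to 40.6% in CD8+ TILs, which did not overlap either. *Tuba1b* took 24.9% to 33.0% and 26.3% to 35.1%, which overlapped. Among the beta-tubulins *Tubb5* took 62.3% to 68.7% in CD4+ and 60.4% to 66.2% in CD8+ TILs, and *Tubb4b* 25.1% to 33.7% and 31.5% to 37.3%. The ranges overlapped for both of these genes. The small share of *Tubb4a* did not, with 0.806% to 1.96% in CD4+ and 0.124% to 0.47% in CD8+ TILs. In Sirt2-/- CD4+ replicate 4 *Tuba1b* alone took 76.5% of the alpha-tubulin level, and the alpha-tubulin sum of that library, 59.7 CPM per kb, was the highest of its group. With the 3 libraries with few genes included, the ranges of *Tuba1a*, *Tuba4a* and *Tubb4a* overlapped between the cell types. *Tuba1a* took 2.21% and *Tuba4a* 52.1% in WT CD4+ replicate 1, and *Tubb4a* took 0% in Sirt2-/- CD4+ replicate 4. These shares are descriptions without a test, and those of *Tuba1a*, *Tuba1b* and *Tuba1c* carry the uncertainty of shared reads.

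**Figure D3:**
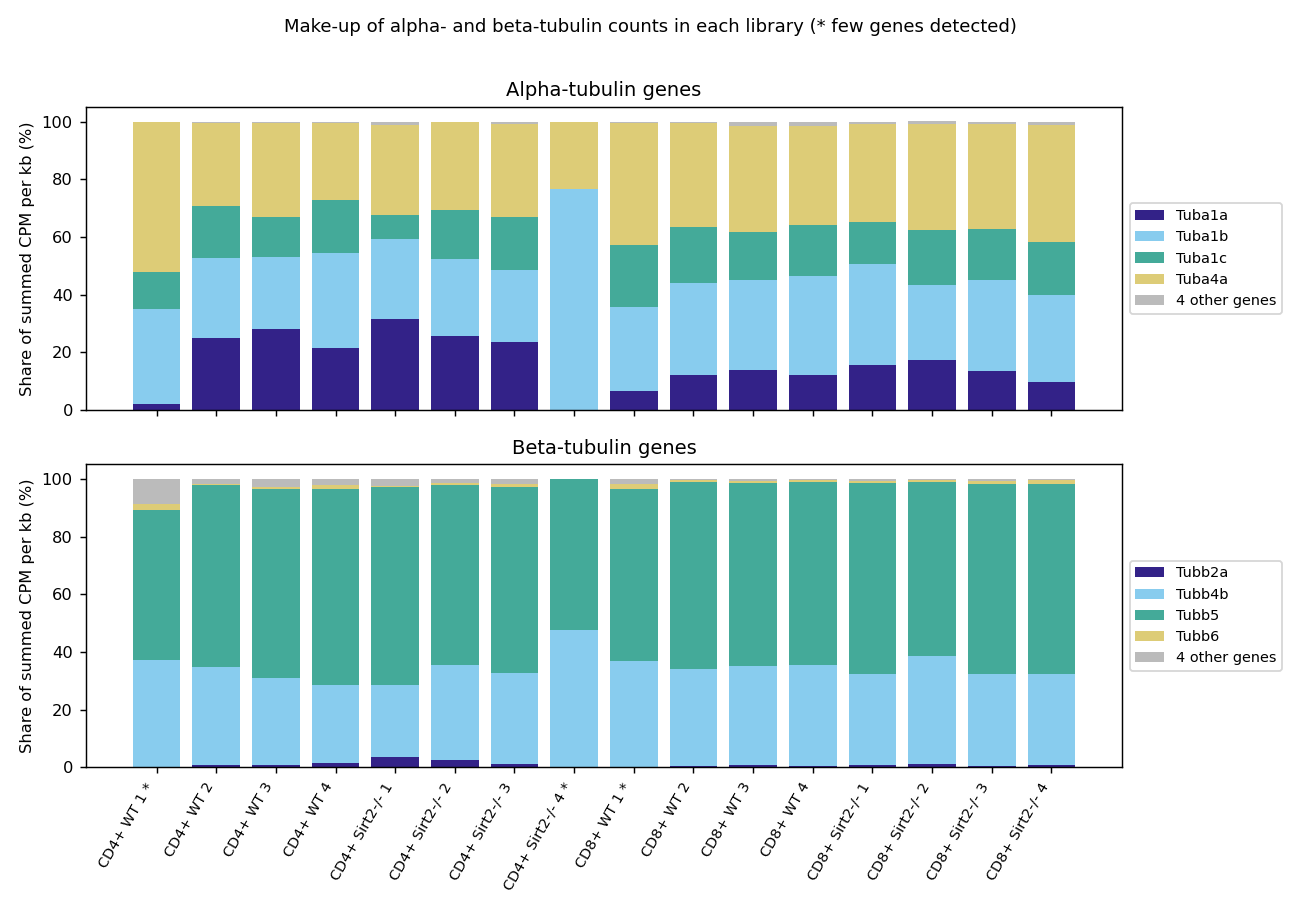
Share of each gene in the summed level per length (y axis, percent of CPM per kb) of 8 alpha-tubulin genes (top) and 8 beta-tubulin genes (bottom) in each of the 16 libraries (x axis), with an asterisk at the libraries with few genes detected. The dark Tuba1a segment is taller in CD4+ than in CD8+ libraries with many genes, and the Sirt2-/- CD4+ library 4 holds almost no Tuba1a or Tuba1c.

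No difference between Sirt2-/- and WT TILs passed edgeR's test in any of the 10 genes, and DESeq2 and limma-voom called none of the 10 either. These comparisons use the same libraries as those between the cell types. In CD8+ TILs 0 of the 10 were called, against 0.00654% of 15302 genes, which is *Sirt2* alone (log2 fold change -2.22, SE 0.21, adjusted p = 0.00663, edgeR). Of the 10 genes 0 had an unadjusted p under 0.05, against 3.78% of all genes. The call of *Sirt2* was lost without Sirt2-/- CD8+ replicate 1 (-2.25, adjusted p = 0.057, edgeR) or 4 (-2.16, adjusted p = 0.062, edgeR) and in 1 model of 16 libraries (-2.21, adjusted p = 1, edgeR), where the 1 gene called was another. The CD8+ estimates were the more precise ones. *Tubb5* had group means of 797 ± 221 CPM in WT and 783 ± 35.6 CPM in Sirt2-/- CD8+ TILs (SD, n = 4), with a log2 fold change of -0.02 and an interval of 2 SE from -0.36 to 0.32. *Tuba4a* had 154 ± 35.9 and 154 ± 23.3 CPM, with an interval of -0.33 to 0.33, and *Tubb4b* 276 ± 61.7 and 252 ± 23.1 CPM, with an interval of -0.42 to 0.17. *Tuba1b* had an interval of -0.53 to 0.36, *Tuba1c* of -0.53 to 0.27 and *Tubg1* of -0.36 to 0.26, so that a change of 1 on the log2 scale lay outside the interval of each of these 6 genes.

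*Atat1*, whose product writes the mark that SIRT2 removes, measured 1.69, 3.44, 3.15 and 3.33 CPM in WT and 4.07, 3.48, 2.11 and 2.86 CPM in Sirt2-/- CD8+ TILs, with overlapping groups and a log2 fold change of 0.11 (interval -0.69 to 0.90). *Hdac6*, the other tubulin deacetylase, measured 19.63, 12.77, 10.9 and 13.15 CPM in WT and 9.54, 11.57, 12.36 and 12.1 CPM in Sirt2-/- CD8+ TILs (log2 fold change -0.31, SE 0.22, adjusted p = 0.986, edgeR). Without WT replicate 1, the library with few genes, its log2 fold change was -0.10 (SE 0.16). *Tubb2a* had the widest interval in CD8+ TILs, -1.09 to 2.53, since WT replicate 1 had 0 counts. Without that library 0 of the 10 genes and 0.0439% of all genes were called, and the largest of the 10 changes was 0.31 (*Tubb2a*, SE 0.35) upward and -0.27 (*Tuba1b*, SE 0.16) downward.

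In CD4+ TILs 0 of the 10 genes and 0% of 15070 genes were called by edgeR, with 190 genes (1.26%) at an unadjusted p under 0.05 and none of the 10 among them, and DESeq2 and limma-voom called 7 and 4 genes, none of them among the 10. With all libraries edgeR did not call *Sirt2* itself in CD4+ TILs (log2 fold change -2.6, SE 1.26), whereas limma-voom did (-1.99, SE 0.22, adjusted p = 0.00721). The smallest unadjusted p of the 10 genes was 0.259 (*Tubb5*, edgeR). *Tubb5* had 402 ± 58.7 CPM in WT and 334 ± 82.6 CPM in Sirt2-/- CD4+ TILs (SD, n = 4), a log2 fold change of -0.26 with an interval of -0.69 to 0.17, where the median over all genes was -0.112. *Tuba4a* (-0.64 to 0.26) and *Tubb4b* (-0.60 to 0.16) had like intervals. *Tuba1a*, *Tuba1c*, *Tubb2a*, *Tubb6*, *Tubg1* and *Atat1* had SEs of 1.15 to 1.82, and thus wide intervals, from -3.66 to 3.62 for *Atat1*.

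Without the 2 CD4+ libraries with few genes the intervals narrowed, and 0 of the 10 genes and 0.0374% of all genes were called. *Sirt2* was among the genes called there (-1.95, SE 0.18, adjusted p = 0.00163, edgeR). *Tubg1* measured 19.3, 16.2 and 17.1 CPM in the other 3 WT and 12.3, 13.7 and 15.5 CPM in the other 3 Sirt2-/- CD4+ libraries, and it was the 1 gene of the 10 whose WT and Sirt2-/- groups did not overlap, a share like that of all genes tested (10.8% without the libraries with few genes). With all libraries it was again the 1 gene in CD4+ TILs, against 3.13% of all genes, and in CD8+ TILs there was none, against 2.95% (5.08% without the library with few genes). In CD4+ TILs without the libraries with few genes the log2 fold change of *Tubg1* was -0.34 (interval -0.76 to 0.08, adjusted p = 0.99, edgeR). *Tubb2a* had the largest estimate, 0.92 (interval 0.03 to 1.81, adjusted p = 0.99, edgeR), from 3.07, 2.45 and 5.17 CPM in WT and 10.1, 6.43 and 3.61 CPM in Sirt2-/- libraries, which overlapped. *Atat1* had 147, 253 and 108 counts in WT and 96, 151 and 264 in Sirt2-/- libraries, with an interval of -0.97 to 0.92.

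**Figure D4:**
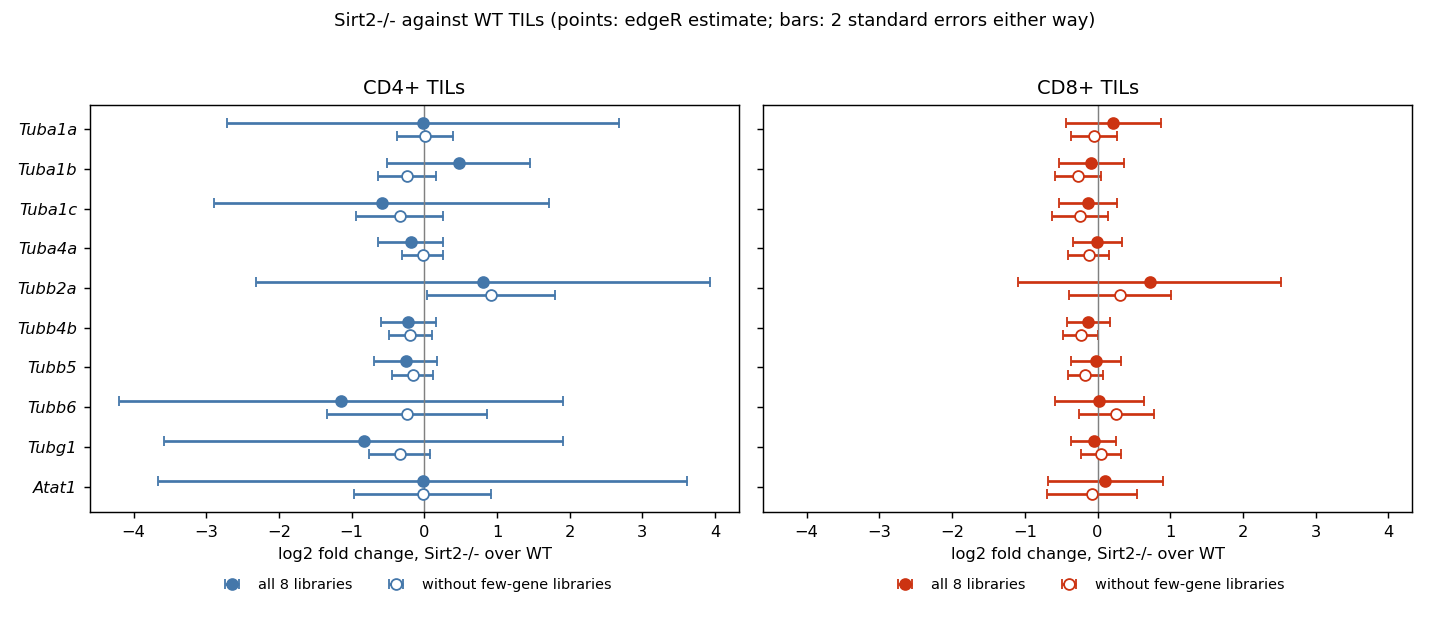
Log2 fold change of Sirt2-/- over WT (x axis) for the 10 genes (y axis) in CD4+ and CD8+ TILs, with points for edgeR's estimates and bars for 2 standard errors either way, filled for all 8 libraries and open without those with few genes detected. All 20 filled bars cross 0, and the CD4+ bars of Tuba1a, Tuba1c, Tubb2a, Tubb6, Tubg1 and Atat1 shorten when the libraries with few genes are left out.

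Levels of markers of other cells stand beside these values. In CD8+ TILs the summed level of 9 myeloid markers was 0.847 to 4.07 CPM in WT and 4.56 to 28.5 CPM in Sirt2-/- libraries, with 6 of the 6 tested markers higher in Sirt2-/- and 0 called. That of 6 fibroblast markers was 0 to 3.57 and 1.01 to 57.5 CPM, which overlapped. In CD4+ TILs the myeloid sums were 0 to 11.4 and 4.46 to 28.5 CPM and the fibroblast sums 0.624 to 11.1 and 3.95 to 58.5 CPM, both overlapping, with 0 markers called. Their part in the tubulin values was not tested.

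Whether the genotype had another effect in CD8+ than in CD4+ TILs was tested as an interaction over all 16 libraries. It passed for 0 of the 10 genes and 0% of 17270 genes by edgeR (342 genes, or 1.98%, at an unadjusted p under 0.05, and 2 genes called by DESeq2). The interaction is the same quantity as the difference between genotypes in the CD8+ to CD4+ fold change. For *Tuba4a* it was 0.19 (interval -0.32 to 0.71), for *Tubb4b* 0.10 (-0.39 to 0.58) and for *Tubb5* 0.24 (-0.32 to 0.80). Genes called in WT but not in Sirt2-/- TILs, *Tuba1b* (-0.57, interval -1.64 to 0.51) and *Tuba1c* (0.47, interval -1.70 to 2.64), were not shown to differ. Without the libraries with few genes the interaction was -0.02 for *Tuba1b* (interval -0.53 to 0.49) and within -0.10 to 0.10 for the 5 genes called in WT TILs, and 0% of 17993 genes passed.

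The other genes of tubulin biology were described by lists. Of the 8 subunits of the CCT chaperonin, which folds newly made tubulin, 6 were higher in WT CD8+ than in WT CD4+ TILs (*Tcp1* 0.69, *Cct2* 0.75, *Cct3* 0.97, *Cct5* 0.77, *Cct6a* 0.95 and *Cct8* 0.81 on the log2 scale, adjusted p from 0.00273 to 0.0125, edgeR), and all 8 estimates were positive in both genotypes. In Sirt2-/- TILs 1 of the 8 was called, *Cct3* (1.06, SE 0.12, adjusted p = 0.00449, edgeR). Without the libraries with few genes all 8 were called in both genotypes, with a median of 0.88 in WT and 0.73 in Sirt2-/- TILs. The summed level of the 8 was 1270 to 1450 CPM in WT CD4+ and 1800 to 2780 CPM in WT CD8+ TILs, and 1310 to 1390 CPM in the Sirt2-/- CD4+ libraries with many genes, 2390 CPM in the one with few and 2180 to 2370 CPM in Sirt2-/- CD8+ TILs. With all libraries none of the 7 folding cofactors or the 8 genes of the gamma-tubulin ring complex was called in any comparison. Neither was any tested gene of tubulin tyrosination and glutamylation (11 or 12 of 15, depending on the comparison) or of microtubule ends and stability (13 of 14). The medians of these 4 lists between CD8+ and CD4+ TILs lay between -0.06 and 0.38. Without the libraries with few genes 14.9% of all genes in WT and 13.8% in Sirt2-/- TILs were called higher in CD8+ TILs. Higher in each genotype were 1 of 7 folding cofactors, 2 of 8 ring complex genes and 2 of 13 genes of ends and stability. Of the 12 tested genes of tyrosination and glutamylation 1 was higher in WT and 3 in Sirt2-/- TILs. Called lower over all genes were 2063 of 15694 in WT and 1940 of 16703 in Sirt2-/- TILs. Of these lists, lower were 1 of 8 ring complex genes and 1 of 13 genes of ends and stability in each genotype. In WT TILs 1 of 12 of tyrosination and glutamylation was lower too. The genes called in both genotypes follow. *Tbca*, a folding cofactor, was higher in CD8+ TILs (0.65 in WT and 0.55 in Sirt2-/- TILs), as were *Tubgcp2* (0.49 in each) and *Nedd1* (0.66 and 0.53), of the ring complex and its recruitment. *Vash1*, a tubulin carboxypeptidase (3.47 and 3.33), *Mapre1*, which binds growing ends (0.44 and 0.31), and *Stmn1*, which binds free tubulin dimers (0.95 and 1.10), were higher too. *Tubgcp4* (-0.57 and -0.53) and *Clip1* (-0.41 and -0.48) were lower.

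Of the 11 other tubulins 5 were tested between the cell types in WT TILs, where 1037 of 14892 genes were called lower in CD8+ TILs. The 1 called among the 5 was *Tubb4a*, a beta-tubulin known from brain, as lower (log2 fold change -2.65, SE 0.60, adjusted p = 0.0154, edgeR). It had 1110, 372, 317 and 266 counts in WT CD4+ and 84, 112, 91 and 63 counts in WT CD8+ replicates 1 to 4. The 1110 counts stood in the CD4+ library with few genes and high melanoma markers, and the other 3 CD4+ libraries still lay above all CD8+ ones (-1.64, SE 0.31, without the libraries with few genes). Without these, *Tuba8* (3.71, SE 0.97) and *Tubd1* (1.16, SE 0.37), of 6 tested, were also called, as higher in WT CD8+ TILs, against 14.9% of all genes. In Sirt2-/- TILs without the library with few genes *Tubd1*, of 7 tested, was called higher too (0.85, SE 0.27), against 13.8% of all genes. *Tuba8* was not called there (1.57, SE 0.84). *Tubb4a* had 283, 120, 273 and 0 counts in Sirt2-/- CD4+ and 151, 41, 194 and 103 in Sirt2-/- CD8+ TILs, which overlapped. *Tuba3b* had 0 counts in all 16 libraries.

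Genes of cell division had estimates in the same direction as the tubulins. Of 12 proliferation genes 12 had higher estimates in CD8+ than in CD4+ TILs in both genotypes, and 3 were called in WT TILs, *Top2a* (1.13), *Ccna2* (1.03) and *Bub1* (1.68, adjusted p from 0.0127 to 0.0414, edgeR), and 0 in Sirt2-/- TILs, where *Top2a* had the adjusted p of 0.0657 (edgeR). Without the libraries with few genes 9 were called in WT and 7 in Sirt2-/- TILs. The median of the 12 was 0.98 in WT and 1.49 in Sirt2-/- TILs, against -0.023 and 0.163 over all genes. Their summed levels overlapped between the cell types, with 546 to 1030 CPM in WT CD4+ and 888 to 1830 CPM in WT CD8+ TILs, and 308 to 905 and 799 to 1520 CPM in Sirt2-/- TILs. Their part in the tubulin values was not tested. *Pecam1*, an endothelial marker that T cells also carry, was lower in WT CD8+ TILs (-1.46, SE 0.16, adjusted p = 0.000235, edgeR), and *Cdh5* and *Kdr* were too low to be tested there.

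The 6 genes above 0 in all 16 libraries were set beside 17270 genes for the gene most like them across the libraries, as Pearson's r of log2 CPM, a description only. *Tuba4a* (r = 0.973) and *Tubb4b* (r = 0.974) were most like *Atp5b*, a subunit of the mitochondrial ATP synthase, *Tubb5* most like *Rrs1* (r = 0.986), a factor of ribosome assembly, and *Tuba1b* most like the chaperone gene *Hsp90ab1* (r = 0.974). Over the 13 libraries with many genes these 4 values were 0.982, 0.984, 0.984 and 0.969. *Tuba1a* was most like *Rabl3* (r = 0.993), but r was 0.547 over the 13 libraries, since *Rabl3* had 0 to 206 counts in the 3 libraries with few genes and 318 to 726 in the others. *Tuba1c* was most like *Ildr1* (r = 0.991, and 0.939 over the 13). Libraries of 1 cell type share their level of many genes, so these values carry the difference between CD8+ and CD4+ TILs.

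The sequence upstream of the start site is shown for *Tubb4b* and *Tubb5*, the beta-tubulins called in both genotypes, from RefSeq on GRCm38.p6. The 250 bases before the start are given 5′ to 3′ on the minus strand, with CCAAT or its complement ATTGG, the core of the site of the factor NF-Y, in capitals.
Tubb4b, chr2:25224703-25224952: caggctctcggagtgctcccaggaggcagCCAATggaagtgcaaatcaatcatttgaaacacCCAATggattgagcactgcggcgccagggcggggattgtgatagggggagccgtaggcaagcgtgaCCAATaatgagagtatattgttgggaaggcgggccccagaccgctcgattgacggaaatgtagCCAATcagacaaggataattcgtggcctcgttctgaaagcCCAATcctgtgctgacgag
Tubb5, chr17:35838302-35838551: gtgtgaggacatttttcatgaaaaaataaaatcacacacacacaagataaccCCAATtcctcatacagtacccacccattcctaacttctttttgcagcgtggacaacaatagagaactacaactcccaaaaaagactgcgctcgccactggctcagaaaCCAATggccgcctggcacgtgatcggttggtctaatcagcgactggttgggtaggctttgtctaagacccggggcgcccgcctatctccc
*Tubb4b* had 5 matches on the 2 strands together and *Tubb5* had 2, *Tuba1a* and *Tuba1c* had 1 each, and *Tuba1b*, *Tuba4a*, *Tubb2a* and *Atat1* had 0. Of 32851 upstream sequences of this length 33.8% held at least 1. Genes with and without a match thus stood among those higher in CD8+ TILs, *Tuba4a* with 0 included. *Tubb6* and *Tubg1* were not matched.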

How the data were processed

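Total RNA of 16 libraries was sequenced by the authors (stranded, rRNA-depleted kit for low input), who deposited raw counts, as whole numbers of reads per gene and library. The labels name STAR, HTSeq and the build mm10, with no versions. Gene identifiers are those of GENCODE M21 (GRCm38). Libraries were grouped by the cell type and genotype of their labels. The methods give n = 4 per group, and no source used here ties libraries of 1 number to 1 mouse. The p-values measure the spread between these libraries.

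The fits used edgeR 4.0.16 (R 4.3.3), with TMM scaling, low genes removed by filterByExpr on the groups compared, and the two-sided quasi-likelihood test with robust dispersions (Benjamini–Hochberg adjustment over all genes tested, threshold 0.05), in a separate fit of 8 libraries for each comparison and in 1 fit of 16 for the interaction. The pipeline was tested on simulated data without libraries of few genes, so that test does not bear on how such libraries act on the fits. Levels are CPM on TMM-scaled library sizes, and log2 CPM used a prior count of 2. Levels of different genes were compared per kilobase of merged exons. SEs are the log2 fold change over the square root of edgeR's F, and intervals run 2 SEs either way. Where a library had 0 counts, the stated limit of 3 reflects counting error alone. Shared sequence was counted as 100-base transcript windows identical to a window of another gene.

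All 10 genes were named whatever their values. Of each list but those of T cell markers, genes called with all libraries were named (all if 6 or fewer). *Sirt2*, *Hdac6*, *Cd4* and *Cd8a* served as checks. Genes and lists were chosen with earlier results of these data known. Alternatives were DESeq2 1.42.0, limma-voom (limma 3.58.1) with quality weights, other size factors, no filter, 1 model of 16 libraries, a replicate block, leaving out each library and, chosen after seeing the data, leaving out the libraries with under 15000 genes detected. Same-numbered libraries were not treated as pairs.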

Additional observations from a re-analysis of the deposited data

Results flagged for a closer look

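Of 40 groups of 4 libraries (10 genes in 4 groups), 3 held a library far from the other 3 by Dixon's ratio (above its 95% critical value for 4 samples), and chance gives about 1 in 20, or 2 of 40. All 3 libraries are those with few genes detected. *Tuba1a* measured 1.7 CPM in WT CD4+ replicate 1, against 22.9 to 26.0 CPM in the other 3 (ratio 0.875). *Tuba1b* measured 85.7 CPM in Sirt2-/- CD4+ replicate 4, against 22.9 to 26.9 CPM (ratio 0.937). *Atat1* measured 1.69 CPM in WT CD8+ replicate 1, against 3.15 to 3.44 CPM (ratio 0.837).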

How the results depend on the processing

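Between CD8+ and CD4+ TILs *Tuba4a* and *Tubb4b* kept their direction and their call in both genotypes under every alternative, whereas the number of the 10 genes called moved from 5 to 3 in WT TILs with 1 model of 16 libraries, to 7 with limma-voom and to 6 without the libraries with few genes, and from 3 to 7 in Sirt2-/- TILs under limma-voom, or when the libraries with few genes were left out. Without 1 library it ranged from 3 to 6 in WT and from 2 to 7 in Sirt2-/- TILs. With the replicate block it was 5 in WT and 2 in Sirt2-/- TILs, where the call of *Tubb5* was lost (1.25, adjusted p = 0.0668, edgeR). Among the WT CD4+ libraries, each WT CD8+ library correlated best with that of its own number, a hint from the data only. The values were 0.124, 0.111, 0.135 and 0.098, as Pearson's r of deviations from the group means over genes. In Sirt2-/- TILs r was -0.024 to 0.15, and the best partner had the same number for CD8+ replicates 1 and 2 only. The numbers are not stated to pair the samples, and 1 WT value was under the limit of 0.1. No comparison of Sirt2-/- with WT and no interaction called any of the 10 genes under any alternative.

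All genes called moved as follows. For Sirt2-/- against WT it was 7 (DESeq2), 4 (limma-voom) and 6 (libraries with few genes left out) in CD4+ TILs, and 28, 4 and 7 in CD8+ TILs, with 5 without a filter, 4 with the replicate block and 0 to 7 without 1 library. For CD8+ against CD4+ TILs in WT it was 2651 (DESeq2), 5481 (limma-voom), 811 (1 model of 16), 4394 (again without the libraries with few genes) and 1022 to 2767 without 1 library, against 1765. In Sirt2-/- TILs it was 1339, 4474, 781 and 4250, with 108 under the replicate block and 111 to 4250 without 1 library, against 354. Of these calls 41.2% were higher in CD8+ TILs in WT (53% without the libraries with few genes) and 41% in Sirt2-/- TILs (54.4%). DESeq2 called 2 genes for the interaction.

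Log2 fold changes that turned sign belonged to genes not called. Without the libraries with few genes these were *Tuba1a* (0.012) and *Tuba1b* (-0.244) for Sirt2-/- against WT in CD4+ TILs, *Tuba1a* (-0.054), *Tubg1* (0.05) and *Atat1* (-0.073) in CD8+ TILs, *Tubb2a* (0.121) in WT and *Atat1* (-0.343) in Sirt2-/- TILs between the cell types, and *Tuba4a* (-0.098), *Tubb4b* (-0.046) and *Tubb5* (-0.002) in the interaction. With limma-voom they were, in the same order, *Tuba1b* (-0.132), *Tubb6* (0.379) and *Atat1* (0.044), *Tuba1a* (-0.115) and *Atat1* (-0.113), *Tubb2a* (0.228), *Atat1* (-0.349), and *Tuba1c* (-0.216), *Tuba4a* (-0.107), *Tubb4b* (-0.17) and *Tubb5* (-0.064). With the replicate block they were *Atat1* (0.1) in CD4+, *Tuba4a* (0.015) and *Tubb5* (0.018) in CD8+ TILs, *Atat1* (0.681) in WT and *Tubb2a* (0.542) in Sirt2-/- TILs. *Tuba4a* in CD8+ TILs was 0.003 with DESeq2 and with its size factors, and *Tubb2a* between the cell types in WT 0.013 with 1 model of 16 and 0.02 without a filter. Without 1 library, the ranges across 0 for Sirt2-/- against WT in CD8+ TILs were -0.073 to 0.266 (*Atat1*), -0.054 to 0.395 (*Tuba1a*), -0.267 to 0.107 (*Tuba1b*), -0.243 to 0.018 (*Tuba1c*), -0.116 to 0.103 (*Tuba4a*), -0.167 to 0.13 (*Tubb5*), -0.122 to 0.262 (*Tubb6*) and -0.161 to 0.05 (*Tubg1*), and in CD4+ TILs -0.632 to 0.516 (*Atat1*), -0.402 to 0.396 (*Tuba1a*) and -0.189 to 0.665 (*Tuba1b*). Between the cell types they were -0.442 to 0.422 (*Atat1*), -0.026 to 0.61 (*Tuba1a*) and -0.353 to 0.411 (*Tubb2a*) in WT, -0.343 to 0.695 (*Atat1*) and -0.518 to 0.489 (*Tubb2a*) in Sirt2-/- TILs, and in the interaction -0.762 to 0.097 (*Tuba1b*), -0.015 to 0.206 (*Tubb4b*), -0.399 to 0.745 (*Atat1*), -0.191 to 0.614 (*Tuba1a*) and -0.536 to 0.505 (*Tubb2a*). Other interaction values are given for the 5 genes called in WT TILs. The cause was not tested, beyond the 0 counts given above. The 40 group levels moved by less than 1 SD on total counts.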
